A study of Mus musculus with 8 samples.

Results

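The 10 genes of osteoblast differentiation studied, Sp7, Dlx3, Dlx5, Msx2, Alpl, Ibsp, Dmp1, Phex, Pth1r and Fgfr3, were followed over 4 groups of cultured mouse stroma cells. They were taken by their gene symbol in the annotation of the array, which gave 17 probe sets for these 10 genes, out of 18194 named genes on 45101 probe sets. Osteoblasts form from mesenchymal precursors in which homeodomain factors of the Dlx and Msx families and then Sp7, also called osterix, switch on bone genes. The maturing cells raise alkaline phosphatase, lay down a collagen matrix that holds bone sialoprotein, and mineralize it. Cells buried in that matrix become osteocytes, which are known for Dmp1 and Phex, 2 genes that restrain the phosphate-wasting hormone Fgf23. Bone marrow stroma contains precursors of osteoblasts and of adipocytes, and both cell types are part of the surroundings in which B cells develop.

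The groups were MC3T3, OP9 with 230-238, OP9 and NIH3T3, each with 2 arrays. MC3T3 is labelled an osteoblast like line and NIH3T3 a line of embryonic fibroblasts, both of strain Balb/c in the labels and grown in DMEM with 10% fetal calf serum. OP9 is labelled bone marrow stroma of strain B6C3F1, carries the red fluorescent marker mStrawberry from a retrovirus and was kept in OptiMEM with 10% serum, so that medium and line cannot be told apart between OP9 and the others. Gentamicin was given to all cultures, and no supplement that drives bone formation is named for MC3T3. In OP9 with 230-238, OP9 cells had shared a culture with 230-238, a pre-B cell line, for 7 days and were then sorted by their red label. The OP9 cells alone are described in the paper as kept in conditioned medium and in the labels only as a culture. Sorting is not given in these descriptions, so sorting and co-culture cannot be told apart between OP9 with 230-238 and OP9. Each group is 1 cell line. The labels call its arrays biological replicates, but nothing says how separate the cultures were, so the spread behind every p-value is that of the arrays and may be technical. Of the MC3T3 arrays, replicate 2 is described as coming from sorted cells.

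The values are normalized intensities on a linear scale, on which the median of an array lay between 41.8 and 45.0 and 34.3 to 36.3% of probe sets reached 100, the level that the paper uses for its tables. Replicate arrays correlated across genes with r between 0.9896 and 0.9976, with the widest scatter in NIH3T3, and genes are not independent replicates. A gene with several probe sets was represented by the one with the highest mean log2 value, and levels are compared only within a probe set. The osteoblast label of MC3T3 was set against Runx2, Sp7, Alpl, Ibsp, Bglap and Col1a1. Of these, Sp7, Alpl and Ibsp stayed under 100 on both MC3T3 arrays, Col1a1 was present but lower than in OP9, and Runx2 and Bglap were not analysed here. Sp7, Alpl and Ibsp were also under 100 in every other group, so no group showed that their probe sets detect the transcript. Dlx5, described below, was outside this check. The line is called by its name below.

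Of the 10 genes, 4 had a mean of 100 or more in MC3T3, namely Dmp1, Dlx5, Msx2 and Fgfr3. Msx2 was the lowest inside at 107 and Dlx3 the highest outside at 63.3. In OP9 with 230-238 only Dlx5 reached the level, with 429, and Fgfr3 was the highest outside at 78.5. In OP9 the genes at 100 were Dlx5, Fgfr3 and Phex, with Phex the lowest inside at 124 and Sp7 the highest outside at 71.5. In NIH3T3 the one gene at 100 was Phex, with 134, and Dlx3 was the highest outside at 59.9. Dlx5 and Fgfr3 were thus the genes at 100 in both MC3T3 and OP9. Dmp1 and Msx2 reached it in MC3T3 and not in OP9, and Phex did so in OP9 and not in MC3T3. The level of Msx2 rested on 1 array, since MC3T3 replicate 1 alone gave 92.8 and left 3 genes at 100.

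**Figure D1:**
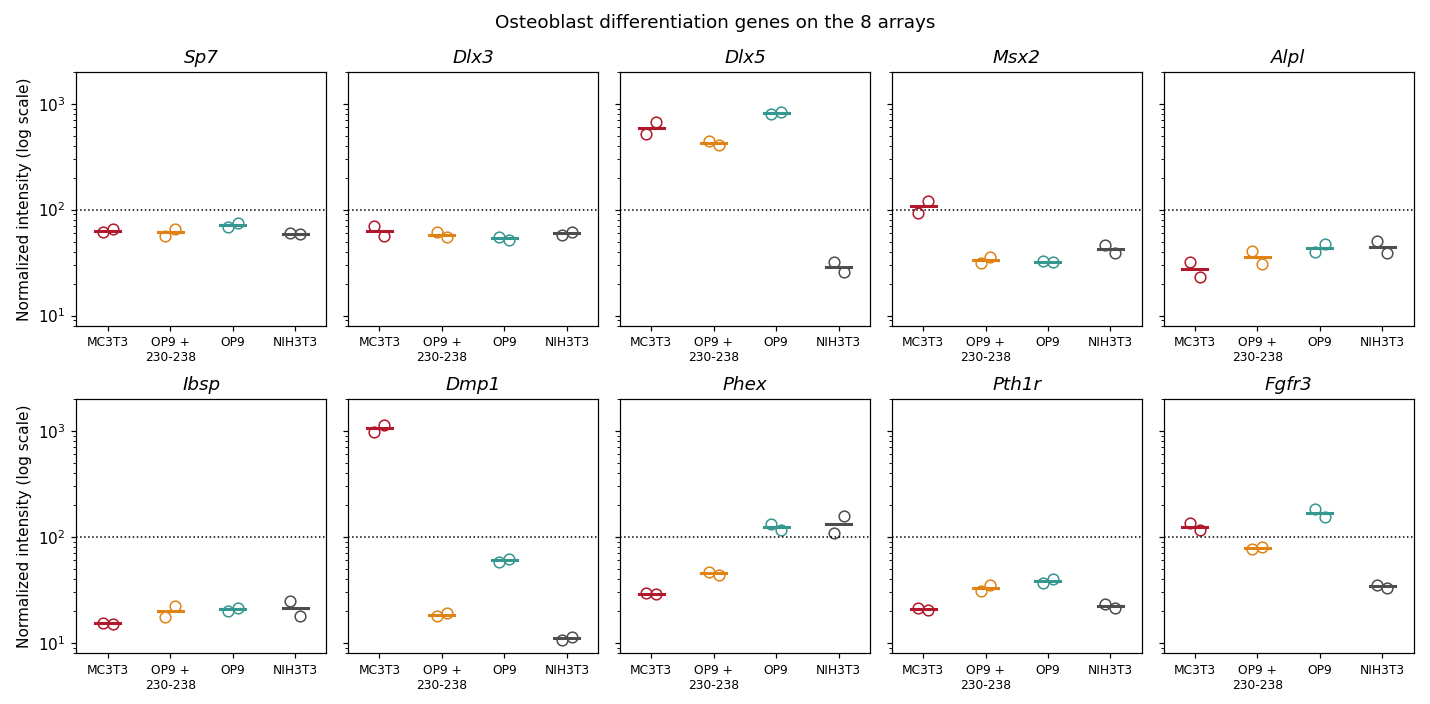
Normalized intensity on a log scale of the 10 genes, each by the probe set that represents it, on the 2 arrays of MC3T3, OP9 with 230-238, OP9 and NIH3T3 (circles, with the group mean as a bar and the level of 100 dotted). Dmp1 stands at 969.7 and 1142 in MC3T3 and at 61.9 or less on the other 6 arrays, while Sp7, Alpl, Ibsp, Dlx3 and Pth1r stay under 100 on all 8.

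For the test across genes, a gene had to show 100 or more on at least 2 of the 8 arrays, which kept 10084 genes and 4 of the 10 studied here, Dlx5, Dmp1, Phex and Fgfr3. Dmp1 passed through the MC3T3 arrays alone, Phex through OP9 and NIH3T3, Fgfr3 through MC3T3 and OP9, and Dlx5 through all groups but NIH3T3, so a count over these 4 genes is no count over the 10. A gene was called when limma gave an adjusted p (Benjamini-Hochberg over all genes tested) under 0.05 and the groups differed at least 2-fold. The 4 comparisons share arrays with each other and are not independent. In bulk samples such as these, fewer cells that express a gene and less RNA per cell cannot be told apart.

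The 250 bases before the start of transcription are shown for Dmp1, Phex and Fgfr3, the genes that were called lower after co-culture, since all 3 were lower in that comparison. They come from RefSeq on build GRCm38.p6, where 7 of the 10 genes had such windows. Capitals mark matches to 3 short motifs, searched on both strands with overlapping matches counted. These were TGTGGT, the core bound by Runx factors (ACCACA on the other strand), TAATTG, a core bound by homeodomain factors such as Dlx and Msx proteins (CAATTA), and GGGCGG, the GC box bound by Sp factors (CCGCCC). Dmp1 has 2 annotated starts on the forward strand of chromosome 5, with windows at chr5:104197325-104197574 and chr5:104202367-104202616. The Phex window lies on the reverse strand at chrX:157415287-157415536, and that of the first Fgfr3 start on the forward strand at chr5:33721474-33721723.
Dmp1, first start: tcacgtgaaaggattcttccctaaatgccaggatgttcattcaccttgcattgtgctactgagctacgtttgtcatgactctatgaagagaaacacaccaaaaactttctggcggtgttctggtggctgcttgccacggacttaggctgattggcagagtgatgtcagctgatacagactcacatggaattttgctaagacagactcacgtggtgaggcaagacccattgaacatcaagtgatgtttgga
Dmp1, second start: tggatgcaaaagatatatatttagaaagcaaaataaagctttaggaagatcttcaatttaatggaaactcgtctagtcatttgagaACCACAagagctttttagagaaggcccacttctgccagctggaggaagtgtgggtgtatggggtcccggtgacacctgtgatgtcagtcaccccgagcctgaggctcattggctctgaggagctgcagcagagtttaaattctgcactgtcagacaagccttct
Phex: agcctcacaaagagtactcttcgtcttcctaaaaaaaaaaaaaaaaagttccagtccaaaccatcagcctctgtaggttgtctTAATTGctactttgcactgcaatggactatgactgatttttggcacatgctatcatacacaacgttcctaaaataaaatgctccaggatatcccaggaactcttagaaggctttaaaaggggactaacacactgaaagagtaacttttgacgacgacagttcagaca
Fgfr3, first start: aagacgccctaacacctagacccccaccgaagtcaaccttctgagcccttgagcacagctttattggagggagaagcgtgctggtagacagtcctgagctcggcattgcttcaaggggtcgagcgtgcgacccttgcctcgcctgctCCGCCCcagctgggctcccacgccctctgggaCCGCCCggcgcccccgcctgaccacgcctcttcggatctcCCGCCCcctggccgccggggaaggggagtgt
The first Dmp1 window held none of the 3 motifs, and the second held ACCACA 164 bases before the start. The Phex window held TAATTG 167 bases before the start. The Fgfr3 window held CCGCCC 103, 71 and 31 bases before the start, and that of a second Fgfr3 start, not printed, held GGGCGG 87 and 82 bases before it. Of 32841 mouse windows of this length, 14% held the Runx core, 7.17% the homeodomain core and 32.7% the GC box. No motif was common to the 3 genes, and a match describes letters, not binding.

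Of the 4 transcription factors among the 10 genes, Dlx5 was the one tested, and it separated MC3T3 and OP9 from NIH3T3. Dlx5, a homeodomain factor of early osteoblasts, had 521.6 and 667 in MC3T3, 447.5 and 410.3 in OP9 with 230-238, 794 and 841 in OP9, and 32.2 and 25.6 in NIH3T3. The 6 arrays of the other groups all lay far above NIH3T3. The order from high to low was OP9, MC3T3, OP9 with 230-238 and NIH3T3. The NIH3T3 mean of 28.9 lay below the medians of its arrays, so the size of folds over it is uncertain. Dlx5 was 20.5-fold higher in MC3T3 than in NIH3T3, a log2 difference of 4.36 ± 0.14 (SE) with an adjusted p of 1.35e-07 in limma. OP9 exceeded NIH3T3 by 28.5-fold, with 4.83 on the log2 scale and an adjusted p of 6.13e-08. Between MC3T3 and OP9 the log2 difference was -0.47 with an adjusted p of 0.0212, which is under 2-fold and was not called. Dlx6, its neighbour on chromosome 6 and a related homeodomain gene, lay under 100 on all arrays, at 28.9 and 28.0 in MC3T3, 42.2 and 34.3 in OP9 with 230-238, 61.1 and 67.1 in OP9, and 33.7 and 20.0 in NIH3T3.

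Msx2, a homeodomain factor of skull and limb, had 92.8 and 121 in MC3T3, 31.4 and 35.6 in OP9 with 230-238, 32.7 and 31.8 in OP9, and 46.3 and 39.4 in NIH3T3. Both MC3T3 arrays lay above all others, but only 1 array reached 100 and the gene was not among those tested. Without the minimum level, in a fit of 18194 genes, Msx2 was 3.29-fold higher in MC3T3 than in OP9 (limma, adjusted p = 5.35e-05) and 2.49-fold higher than in NIH3T3 (adjusted p = 0.000177). In that fit 5.86% of genes were called higher in MC3T3 than in OP9, and 10.7% higher than in NIH3T3. The Msx2 means of 32.2 in OP9 and 42.8 in NIH3T3 lay below the medians of their arrays, so the size of both folds is uncertain. A second Msx2 probe set, 1438351_at, lay between 8.36 and 9.97 on all arrays and showed no such difference.

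Sp7, the zinc finger factor required for osteoblasts to form, had 61.2 and 65.4 in MC3T3, 56.6 and 65.8 in OP9 with 230-238, 68.9 and 74.2 in OP9, and 59.6 and 59.3 in NIH3T3. Its arrays in MC3T3 thus overlapped none of the OP9 arrays but lay within 1.13-fold of them on the mean log2 scale. Dlx3, a homeodomain factor of bone and teeth, had 70.2 and 56.3 in MC3T3, 61.3 and 54.7 in OP9 with 230-238, 55.4 and 51.6 in OP9, and 57.9 and 61.8 in NIH3T3. Its groups overlapped, except that both OP9 arrays lay below those of MC3T3 and NIH3T3. Its second probe set, 1450475_at, gave 28.1 and 21.6 in MC3T3, against 45.5 and 39.0 in NIH3T3.

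Of the genes of matrix and mineral, Dmp1 separated MC3T3 from every other group. Dmp1, an acidic phosphoprotein of bone and dentin, had 969.7 and 1142 in MC3T3, 17.7 and 19.2 in OP9 with 230-238, 58.3 and 61.9 in OP9, and 10.7 and 11.3 in NIH3T3. Both MC3T3 arrays were far above the rest, and the arrays of OP9 were above those of OP9 with 230-238, which were above NIH3T3. Dmp1 was 17.5-fold higher in MC3T3 than in OP9, with a log2 difference of 4.13 ± 0.10 (SE) and an adjusted p of 3.19e-08 in limma. It was 95.8-fold higher in MC3T3 than in NIH3T3 (log2 difference 6.58, adjusted p = 3.21e-09), and 5.47-fold higher in OP9 than in NIH3T3 (2.45, adjusted p = 2.61e-07). Both folds over NIH3T3 were read against values near the bottom of the scale. On the probe set 1426005_at the fold over NIH3T3 came to 17.8 in MC3T3 and, under the minimum, to 1.96 in OP9. That probe set was the one left when probe sets that can bind related transcripts were put aside.

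Dmp1 was the gene with the most probe sets, 3 in all, and all 3 placed MC3T3 above the other groups. The probe set 1443746_x_at gave 817 and 732 in MC3T3, 12.4 and 11.7 in OP9 with 230-238, 29.2 and 17.1 in OP9, and 11.0 and 8.65 in NIH3T3. The probe set 1426005_at gave 196 and 210.3 in MC3T3, 14.2 and 14.7 in OP9 with 230-238, 21.1 and 23.8 in OP9, and 11.4 and 11.5 in NIH3T3. MC3T3 over OP9 came to 34.6-fold on the first of these and 9.07-fold on the other. The size of the difference therefore varied with the probe set, while MC3T3 was above OP9 on all 3.

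**Figure D2:**
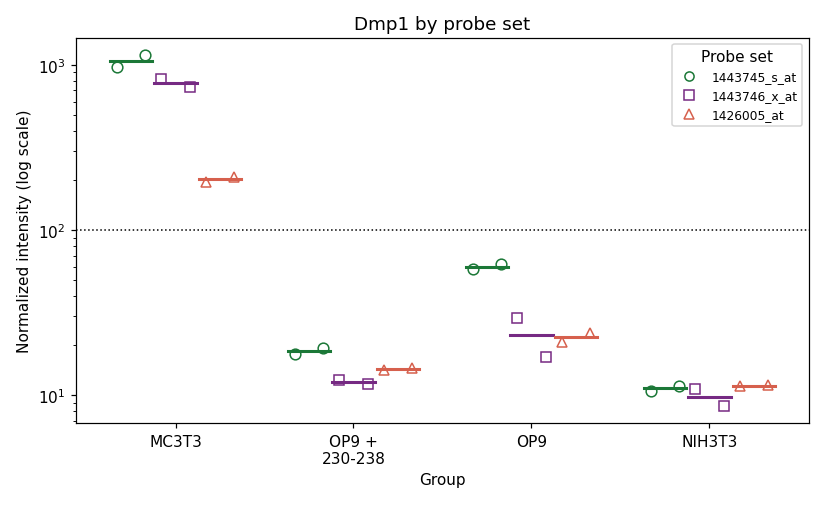
Normalized intensity on a log scale of the 3 probe sets of Dmp1 on the 2 arrays of each group (open symbols, with the group mean as a bar and the level of 100 dotted). All 3 exceed 100 on both MC3T3 arrays, with 196 as the lowest value, and stay at 61.9 or less on the other arrays.

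Phex ran the other way. Phex, a membrane endopeptidase whose loss causes inherited low phosphate, had 29.7 and 28.6 in MC3T3, 46.7 and 43.8 in OP9 with 230-238, 131 and 117 in OP9, and 109 and 159 in NIH3T3. The arrays of OP9 and NIH3T3 overlapped, with OP9 with 230-238 below them and MC3T3 lowest. The MC3T3 mean of 29.2 lay below the medians of its arrays, so the size of folds against it is uncertain. Phex was 4.24-fold lower in MC3T3 than in OP9, with a log2 difference of -2.09 ± 0.16 (SE) and an adjusted p of 1.53e-05 in limma, and 4.51-fold lower than in NIH3T3 (log2 difference -2.17, adjusted p = 9.16e-06). Between OP9 and NIH3T3 the log2 difference was -0.09 (adjusted p = 0.637) and its sign changed to 0.18 without NIH3T3 replicate 2, so these neighbours in the order did not differ beyond their spread. A second Phex probe set, 1450445_at, lay between 14.3 and 20.5 on all arrays and carried no 2-fold difference in any comparison.

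Alkaline phosphatase, encoded by Alpl and the usual early mark of osteoblasts, had 31.9 and 23.1 in MC3T3, 40.9 and 30.8 in OP9 with 230-238, 40.0 and 47.5 in OP9, and 50.1 and 39.0 in NIH3T3. MC3T3 was not the highest group for it, and its arrays lay below both OP9 and NIH3T3 arrays. Ibsp, bone sialoprotein, had 15.2 and 15.2 in MC3T3, 17.5 and 22.2 in OP9 with 230-238, 20.1 and 21.3 in OP9, and 24.7 and 17.8 in NIH3T3. On the other Ibsp probe set, 1417484_at, MC3T3 had 9.38 and 8.01, OP9 with 230-238 23.7 and 30.1, OP9 27.2 and 27.3, and NIH3T3 9.20 and 7.94, so that the arrays of OP9 stood above MC3T3 and NIH3T3 while far under 100. Dmp1 and Ibsp lie next to each other on chromosome 5 in a row of mineral matrix genes that starts with Dspp and goes on to Mepe and Spp1. Dspp lay between 14.2 and 17.1 and Mepe between 38.8 and 60.3 on the 8 arrays, and Spp1 was not analysed here. Of the measured genes of this row, Dmp1 was thus the one at 100 in MC3T3.

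Of the 2 receptors, Fgfr3 reached 100 in MC3T3 and OP9, and Pth1r stayed under 100 in all groups. Fgfr3, a receptor for fibroblast growth factors best known as a brake on cartilage growth, had 135 and 115 in MC3T3, 76.5 and 80.5 in OP9 with 230-238, 184 and 155 in OP9, and 35.4 and 32.9 in NIH3T3. The groups did not overlap and ran from OP9 through MC3T3 and OP9 with 230-238 to NIH3T3. The NIH3T3 mean of 34.2 lay below the medians of its arrays, so the size of folds over it is uncertain. Fgfr3 was 3.65-fold higher in MC3T3 than in NIH3T3, with a log2 difference of 1.87 ± 0.11 (SE) and an adjusted p of 2.65e-06 in limma. OP9 exceeded NIH3T3 by 4.93-fold (2.30, adjusted p = 7.11e-07), while MC3T3 against OP9 came to -0.43 on the log2 scale (adjusted p = 0.00927), under 2-fold. A second probe set, 1425796_a_at, stayed between 31.1 and 68.2, and its differences were under 2-fold in all 4 comparisons. Pth1r, the receptor for parathyroid hormone, had 21.3 and 20.4 in MC3T3, 30.8 and 35.3 in OP9 with 230-238, 37.0 and 39.9 in OP9, and 23.5 and 21.3 in NIH3T3. The arrays of OP9 and of OP9 with 230-238 lay above those of MC3T3 and NIH3T3. All Pth1r values lay below the medians of their arrays, so the size of its folds is uncertain. Without the minimum level Pth1r was 1.85-fold lower in MC3T3 than in OP9 (limma, adjusted p = 0.000288) and was called in none of the 4 comparisons. Nor were Sp7, Alpl, Ibsp and Dlx3, where 12.6% of all genes in that fit were called in MC3T3 over OP9, 17% in MC3T3 over NIH3T3, 19.3% in OP9 over NIH3T3 and 3.52% in OP9 with 230-238 over OP9.

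Counted by comparison, 1 of the 4 tested genes was called higher in MC3T3 than in OP9 (Dmp1) and 1 lower (Phex), where 9.41% of all tested genes were called higher and 10.5% lower. Against NIH3T3, MC3T3 was higher for 3 (Dlx5, Dmp1 and Fgfr3) and lower for 1 (Phex), where 17.8% of all genes were called higher and 9.65% lower. OP9 was higher than NIH3T3 for 3 (Dlx5, Dmp1 and Fgfr3) and lower for none, where 20.5% were called higher and 10.3% lower. The 4 genes were tested because of their levels in these same groups, so the counts are a description. Without the minimum level, Dmp1 and Msx2 were called higher in MC3T3 than in OP9 and Phex lower, where 12.6% of all genes were called. Dmp1 no longer met the minimum level when either MC3T3 array was left out, which left Phex as the 1 gene called between MC3T3 and OP9.

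After co-culture all 4 tested genes had lower values in OP9 with 230-238 than in OP9, and 3 of them were called. Dmp1 was 3.26-fold lower in OP9 with 230-238 than in OP9, with a log2 difference of -1.71 ± 0.10 (SE) and an adjusted p of 1.59e-05 in limma. Phex was 2.74-fold lower (-1.45 ± 0.16, adjusted p = 0.000373) and Fgfr3 2.15-fold lower (-1.10 ± 0.11, adjusted p = 0.000229). Dlx5 came to -0.93 ± 0.14 with an adjusted p of 0.00181, a 1.91-fold difference that was under the minimum and was not called. The arrays did not overlap for any of the 4, but the share of all tested genes without overlap was not counted. Of all genes tested, 2.97% were called lower in OP9 with 230-238 and 2.71% higher. At an unadjusted p under 0.05 in limma, 3091 of the 10084 genes were lower and 1995 higher, with all 4 genes among the lower. Phex and Fgfr3 met the minimum level in OP9 and not in OP9 with 230-238, so the count over these 4 is a description. Sp7, Alpl, Ibsp, Dlx3, Msx2 and Pth1r were under 100 in both groups and were not called without the minimum level either.

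Each of these 3 calls rested on 1 probe set, as no other probe set of the same gene gave a 2-fold difference. The call of Dmp1 was made on values of 17.7 and 19.2 in OP9 with 230-238, against 58.3 and 61.9 in OP9, all under 100. On its other probe sets it came to 1.86-fold and 1.55-fold lower, under the minimum. Fgfr3 was close to the limit and came to -0.98 on the log2 scale without OP9 replicate 1, and to -0.97 with 16 added to each value before the logarithm. None of 7 measured markers of the B lineage reached 100 in either group. Their summed values were 339 to 348 in OP9 with 230-238 and 204 to 212 in OP9. The same sum was 426 to 459 in NIH3T3, where Igll1 and Blnk reached 100, and 243 to 260 in MC3T3. A high sum was thus not particular to the culture with pre-B cells. Vpreb1 and Ptprc had the largest folds of the 7 between OP9 with 230-238 and OP9. Vpreb1, part of the surrogate light chain of pre-B cells, had 77.7 and 76.0 in OP9 with 230-238, against 25.8 and 21.6 in OP9, and Ptprc, the leukocyte antigen CD45, had 34.6 and 31.1 in OP9 with 230-238, against 8.93 and 8.58 in OP9. All 5 measured markers of adipocytes were at 100 in both groups, with sums of 11752 to 11857 in OP9 with 230-238 and 34452 to 34481 in OP9. The part of either in the lower bone genes was not tested.

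**Figure D3:**
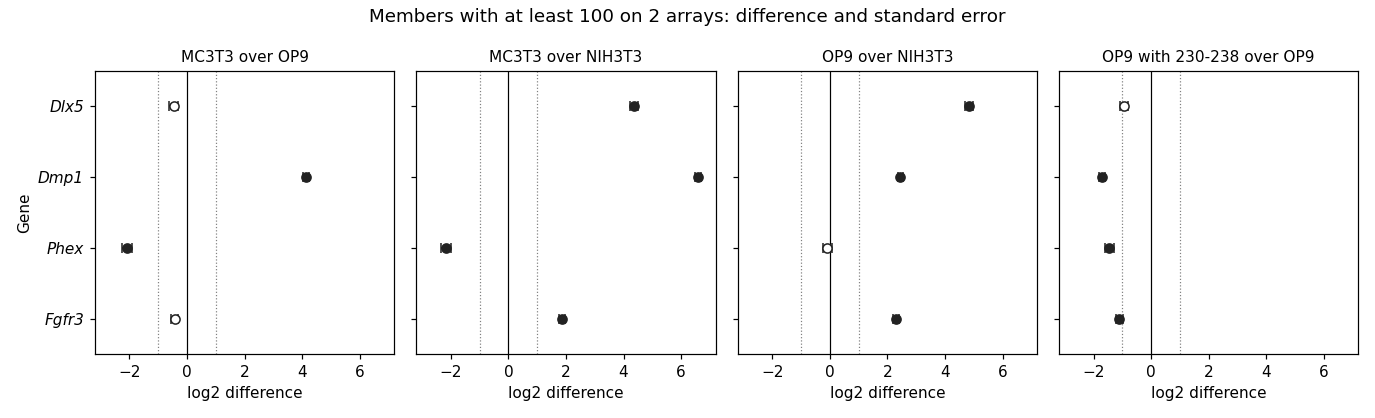
Log2 difference (circle) and standard error (bar) of Dlx5, Dmp1, Phex and Fgfr3 in the 4 comparisons, with filled circles for called genes and dotted lines at a 2-fold difference. Dmp1 reaches 6.58 in MC3T3 over NIH3T3, and all 4 genes lie left of 0 in OP9 with 230-238 over OP9, from -0.93 to -1.71.

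A wider list of 44 other bone genes, in 4 groups by role, was read from the same fit, and 35 of them had a named probe set and 23 were tested. Runx2, Bglap and Spp1 were among those not analysed here. Between MC3T3 and OP9, 5 of the 23 were higher, 5 lower and 13 were not called, where 9.41% of all genes tested were called higher and 10.5% lower. Their median log2 difference was -0.21 against -0.03 over all genes tested. Pdpn, a membrane glycoprotein found on early osteocytes, was 9.04-fold higher, with 2696 ± 320 in MC3T3 and 297 ± 1.75 in OP9 (SD, n = 2 each). Postn, the matrix protein periostin, was 4.96-fold higher at 2109 ± 198 in MC3T3 and 427 ± 67.5 in OP9. Slc20a1, a carrier that takes phosphate into cells, was 4.67-fold higher, and the transcription factor Mef2c 3.66-fold higher. The genes that were lower included Zfp521, a zinc finger factor that holds back osteoblast differentiation, by 20.7-fold, and Fgfr2, a growth factor receptor of bone precursors, by 9.66-fold. Col1a1, the main collagen chain of bone, was 4.63-fold lower at 2220 ± 27.3 in MC3T3 and 10277 ± 412 in OP9, and Omd, osteomodulin, was 3.32-fold lower. Genes of one role thus moved both ways between the lines, Postn up and Col1a1 and Omd down among the matrix proteins.

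Against NIH3T3, 8 of the 23 were higher in MC3T3, 1 lower and 14 were not called, where 17.8% of all genes were called higher and 9.65% lower. The median was 0.52 against 0.12 over all genes. Cdh11, an adhesion molecule first found in osteoblasts, had 8208 ± 416 in MC3T3 and 9.65 ± 1.20 in NIH3T3 (SD, n = 2 each), which is 854-fold with the NIH3T3 arrays at the bottom of the scale. Mgp, an inhibitor of calcification, was 210.2-fold higher in MC3T3, Postn 58.9-fold and Pdpn 4.52-fold. The NIH3T3 means of Mgp and Postn were 39.4 and 36.0, below the medians of their arrays, so these 2 genes were not shown to be above background in NIH3T3 and the size of their folds is uncertain. Twist2, which restrains osteoblast genes, was 5.08-fold lower. In OP9 over NIH3T3 10 were higher, 1 lower and 12 not called, where 20.5% of all genes were called higher and 10.3% lower, and the median was 0.65 against 0.16. Cdh11 was 277-fold higher in OP9, at 2660 against 9.65 in NIH3T3, and Mgp 182-fold. Zfp521 was 38.9-fold higher and Fgfr2 17.9-fold, and Slc20a1 was 2.56-fold lower. For Cdh11, Mgp and Zfp521 the NIH3T3 means again lay below the array medians, so the size of these folds is uncertain.

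After co-culture, 2 of the 23 were higher, 3 lower and 18 not called, where 2.71% of all genes were called higher and 2.97% lower. The median was -0.22 against -0.05 over all genes tested. Slc20a1 was 3.45-fold higher at 676 ± 29.9 in OP9 with 230-238 and 196 ± 9.80 in OP9, and Pdpn was 2.82-fold higher at 838 ± 6.94 in OP9 with 230-238 and 297 ± 1.75 in OP9 (SD, n = 2 each). Postn was 6.93-fold lower at 61.2 ± 1.20 in OP9 with 230-238 and 427 ± 67.5 in OP9. Fgfr2 was 3.85-fold lower and Omd 2.20-fold lower. Col1a1 had 9985 ± 26.7 in OP9 with 230-238 and 10277 ± 412 in OP9 and was not called.

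**Figure D4:**
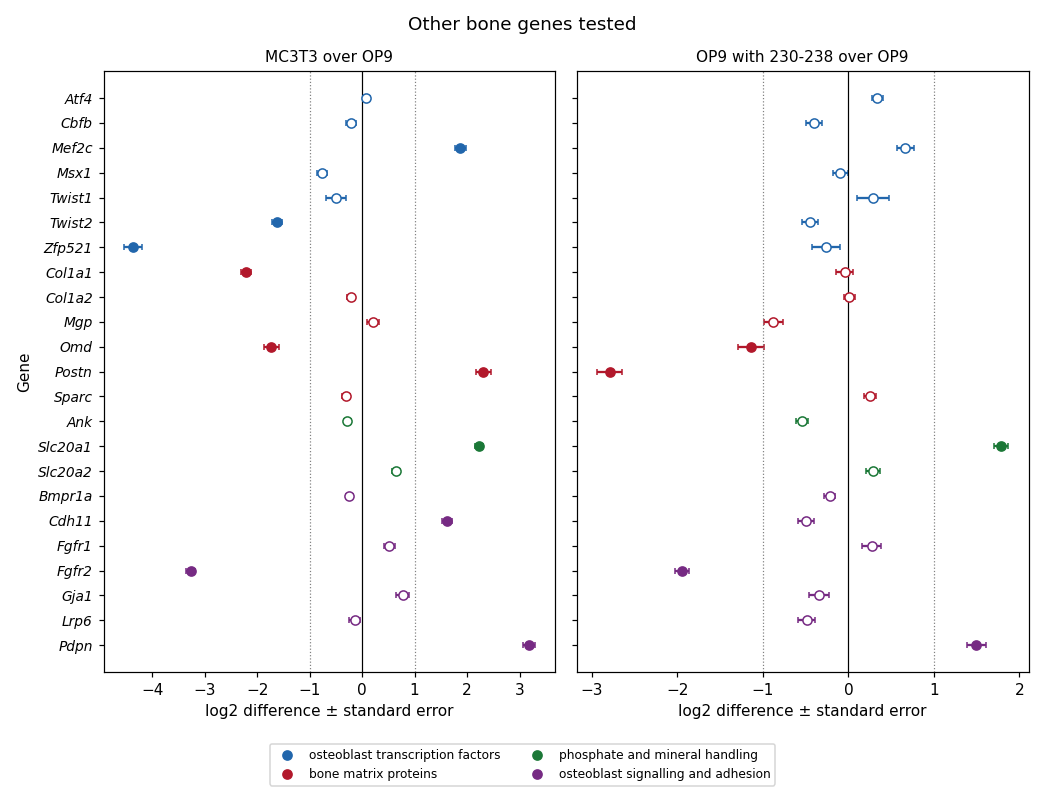
Log2 difference and standard error of the 23 tested genes of the wider bone list, colored by role, in MC3T3 over OP9 (left) and OP9 with 230-238 over OP9 (right), with filled circles for called genes and dotted lines at a 2-fold difference. On the left 10 genes are filled, 5 on each side of 0, and on the right 5, with Slc20a1 and Pdpn to the right of 0 and Postn, Fgfr2 and Omd to the left.

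The genes with profiles most like those of the 4 tested members were sought among 10057 other tested genes, by the root mean square difference of log2 values over the 8 arrays after each gene was centred on its own mean. Nearest to Dmp1 was Sema3a at 0.16, with means of 1941 in MC3T3, 36.4 in OP9 with 230-238, 129 in OP9 and 23.1 in NIH3T3, followed by Mmp16 at 0.53 and Plcb4 at 0.66. Dmp1 thus had 1 close neighbour and then a gap. Nearest to Phex were Cdc42ep3 at 0.17, Dusp1 at 0.19 and Atp10d at 0.27. Nearest to Dlx5 were Gxylt2 at 0.17, Kazald1 at 0.18 and Capn6 at 0.23, and nearest to Fgfr3 were Ostm1 at 0.18, Zfp672 at 0.20 and Ppp1r3e at 0.21. These distances describe 8 arrays of 4 groups, in which many genes share a profile.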

How the data were processed

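RNA for 8 arrays in 4 groups was labelled, in the protocol from about 2000 cells, and hybridized to Affymetrix mouse expression arrays. The values deposited are linear intensities that the authors had normalized between arrays. RMA Express, affylmGUI and dChip are named in the paper, and the program that wrote these values was not stated. The annotation gave 34958 probe sets 1 symbol, 932 several and 9211 none, and only those with 1 were named. Values were taken to log2 without a pseudocount, and group means were fitted for the 10084 genes that reached 100 on 2 or more arrays, with limma 3.58.1 in R 4.3.3, with eBayes and Benjamini-Hochberg adjustment and 4 residual degrees of freedom. Calls needed an adjusted p under 0.05 and 2-fold. The members and lists were chosen with earlier results of these data known. From the wider list up to 4 called genes were named per comparison and direction, by size of fold, beside Runx2, Bglap, Spp1 and Col1a1. The fit was tested on simulated data, and 20 alternatives were tried. The number of arrays limits the precision.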

Additional observations from a re-analysis of the deposited data

How the results depend on the processing

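With a minimum of 200 on 2 arrays, or with the mean over the probe sets of a gene, 2 members were tested, against 4. The members called were then 1 in MC3T3 over OP9, 2 in MC3T3 over NIH3T3 and 1 in OP9 with 230-238 over OP9, against 2, 4 and 3. With the minimum of 200, 1717 of 8448 genes were called in MC3T3 over OP9 and 2377 in MC3T3 over NIH3T3. With the mean over probe sets, 1578 of 8570 and 2184 were called. The mean over probe sets also left 2 members at 100 in MC3T3, against 4. Without a minimum fold, the 4 members were called in MC3T3 over OP9, and the wider list had 19, 18, 20 and 16 calls in MC3T3 over OP9, MC3T3 over NIH3T3, OP9 over NIH3T3 and OP9 with 230-238 over OP9, against 10, 9, 11 and 5. All genes called were then 6713, 7542, 7855 and 4314, against 2011, 2767, 3106 and 572. Leaving out 1 array at a time gave 1 to 2 members called in MC3T3 over OP9, 3 to 4 in MC3T3 over NIH3T3, 2 to 3 in OP9 over NIH3T3 and 2 to 3 in OP9 with 230-238 over OP9, and the log2 difference of Phex in OP9 over NIH3T3, uncalled, ranged from -0.36 to 0.18 (limma, adjusted p = 0.0991 for 0.18, without NIH3T3 replicate 2). Without the _x_at and _s_at probe sets Dmp1 came to 0.97 in OP9 over NIH3T3 and to -0.63 in OP9 with 230-238 over OP9, both under 2-fold. The second probe sets of Phex and Fgfr3 gave none of their calls. Quantile normalization moved the median of all genes by -0.11 in MC3T3 over NIH3T3 and by -0.15 in OP9 over NIH3T3, and no tested member changed call or direction under it or under scaling to a common median. Replicate numbers did not pair the arrays, as deviations of same-numbered arrays correlated between -0.00385 and 0.181, and the replicate number as a block changed no count, with 2, 4, 3 and 3 members and 10, 9, 11 and 5 genes of the wider list called. On the probe set that represents it, Dmp1 had a mean of 60.1 in OP9, above the array medians, and of 18.4 in OP9 with 230-238, below them. The effect of background signal on its difference was not tested.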

Other observations

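Chondrocytes share precursors and the regulator Sox9 with the skeletal lineage, and 6 of their markers were measured. Col2a1, the main collagen of cartilage, had 611 and 633 in MC3T3, 2204 and 2199.6 in OP9 with 230-238, 878 and 946 in OP9, and 77.4 and 53.7 in NIH3T3. It was 2.42-fold higher in OP9 with 230-238 than in OP9, with a log2 difference of 1.27 ± 0.15 (SE) and an adjusted p of 0.00053 in limma, the opposite direction to the 3 osteoblast genes called in that comparison. It was 9.65-fold higher in MC3T3 than in NIH3T3 and 14.1-fold higher in OP9 than in NIH3T3. Sox9 had 288 and 347 in MC3T3, 344.5 and 334 in OP9 with 230-238, 413 and 466 in OP9, and 229.9 and 235 in NIH3T3, and was called in none of the 4 comparisons. Col10a1, the collagen of enlarged cartilage cells, lay under 100 everywhere, with 25.7 and 26.3 in OP9 with 230-238, against 69.3 and 73.6 in OP9, and was not tested. Acan, Comp and Matn1 were also under 100 on all arrays.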
